A study of Mus musculus with 4 samples.

Results

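The 6 genes of the type IV collagen chains, Col4a1 to Col4a6, were followed through the cell types of the mouse glomerulus, the capillary tuft that filters blood in the kidney. They are 6 of the 55488 genes in the count matrices, and all 6 were detected. The data are single-cell RNA sequencing libraries from glomeruli of wild-type mice (WT) and of Alport model mice (AS), which carry the change G5X in the X-linked gene Col4a5. Groups were WT at 5 weeks, AS at 5 weeks, WT at 8 weeks and AS at 8 weeks, with 1 library each, and per the series' design the AS mice had no proteinuria at 5 weeks and mild proteinuria at 8 weeks. The labels call the tissue embryonic kidney, but the ages of the titles and design are used here. The labels state neither strain, sex nor the number of animals in a library. In podocytes, endothelial, mesangial and smooth muscle cells of all 4 libraries the Y-linked gene Ddx3y lay at 80.7 to 137 CPM (a gene's UMI count scaled to the same total in every cell class), and Xist, which is transcribed in female cells, at 0.442 CPM or less.

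With 1 library per group no difference has a replicate check and no test was run. Each comparison is between libraries, and every interval is a 95% interval that covers counting error only. A UMI (unique molecular identifier) counts 1 captured mRNA 3′ end, so levels were not divided by gene length, and levels of different genes compare only as far as their 3′ ends are captured alike. Values of 4 libraries are given in the order WT 5 weeks, AS 5 weeks, WT 8 weeks, AS 8 weeks.

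Type IV collagen is the sheet-forming collagen of basement membranes, and its chains leave the cell as trimers. The chains of Col4a1 and Col4a2 form the trimer found in nearly all basement membranes, including the mesangial matrix. Those of Col4a3, Col4a4 and Col4a5 form the trimer of the mature glomerular basement membrane, which lies between podocytes and endothelium, and this trimer is missing in severe Alport syndrome. Col4a5 also joins Col4a6 in a trimer of Bowman's capsule and of basement membranes around smooth muscle.

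The genes lie in 3 head-to-head pairs, transcribed away from each other (GENCODE M21, build GRCm38). Col4a1 (ENSMUSG00000031502, chr8:11198423-11312826, minus strand) and Col4a2 (ENSMUSG00000031503, chr8:11312805-11449287, plus strand) overlap by 22 bases at their starts. Col4a4 (ENSMUSG00000067158, chr1:82448423-82586849, minus strand) and Col4a3 (ENSMUSG00000079465, chr1:82586921-82722059, plus strand) are separated by 71 bases. Col4a6 (ENSMUSG00000031273, chrX:141165403-141474076, minus strand) and Col4a5 (ENSMUSG00000031274, chrX:141475385-141689234, plus strand) are separated by 1308 bases. The stretches at the starts of the Col4a3 and Col4a5 pairs are shown for reference, and their part in the levels below was not tested. They are RefSeq promoter sequences (GRCm38.p6), at chr1:82586850-82586920 on the plus strand, at chrX:141475169-141475384 on the plus strand and at chrX:141474077-141474326 on the minus strand. Capitals mark CCAAT or GGGCGG (the GC box) on either strand.
Between Col4a4 and Col4a3: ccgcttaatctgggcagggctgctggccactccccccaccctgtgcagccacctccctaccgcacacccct
Upstream of Col4a5: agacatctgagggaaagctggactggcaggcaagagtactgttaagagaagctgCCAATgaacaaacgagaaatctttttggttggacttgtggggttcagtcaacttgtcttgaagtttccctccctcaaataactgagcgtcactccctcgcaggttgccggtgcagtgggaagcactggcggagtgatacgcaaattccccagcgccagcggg
Upstream of Col4a6: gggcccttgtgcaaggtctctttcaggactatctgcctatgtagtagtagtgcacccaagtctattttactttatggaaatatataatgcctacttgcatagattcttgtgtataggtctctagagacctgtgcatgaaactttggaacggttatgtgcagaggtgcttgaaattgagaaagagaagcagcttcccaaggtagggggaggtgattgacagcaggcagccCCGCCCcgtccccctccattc
Over the 250 bases before each RefSeq start, GGGCGG was found for Col4a2, Col4a5 and Col4a6, and CCAAT for Col4a1, Col4a2 and Col4a5, while 32.7% and 33.9% of all 32851 promoters hold these letters. TATAAA, held by 12.4% of them, was found for none of the 5 members in the table. Col4a3 has no entry, and the GGGCGG of Col4a5 lies outside the stretch shown.

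The change that the AS label names lies at codon 5 of Col4a5, in exon 1 (chrX:141475747-141475749). The reference coding start of transcript Col4a5-202, with this glycine codon in capitals, reads as follows at chrX:141475735-141475764.
Col4a5 coding start: atgcaagtgcgtGGAgtgtgcctggctgcc
The libraries count 3′ ends, far from codon 5, so the sequence of a Col4a5 UMI does not show whether its mRNA carried the change. The Col4a5 level was not used as a check of the genotype labels.

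The 4 libraries held 6604 to 7963 barcodes and 74356581 to 126118422 UMIs, and pairs of libraries shared 13 to 18 barcodes. Cells with at least 1000 UMIs and 500 genes and at most 20% mitochondrial UMIs were classed by marker genes other than the 6 members. Podocytes, the epithelial cells that cover the capillaries, numbered 1740, 1653, 2970 and 2536, and endothelial cells 2750, 3433, 1166 and 2618. Mesangial cells, the contractile cells that hold the capillary loops, numbered 706, 920, 187 and 1247. Smooth muscle cells of the arterioles numbered 78, 147, 441 and 119, and cells past the cut for Ren1 and Akr1b7, called renin gate cells here, 19, 33, 70 and 12. Nphs1 lay at 2130 to 2750 CPM in podocytes, Cdh5 at 713 to 877 CPM in endothelial cells, Pdgfrb at 545 to 1120 CPM in mesangial cells and Myh11 at 4280 to 5800 CPM in smooth muscle. Immune cells, which numbered 31 to 150, served as cells that should lack the chains. The WT 8-week library stood apart. Barcodes past a marker cut that were still left out, for markers of another lineage or too few marker UMIs, numbered 982 there against 276 to 533 in the others, with a median of 1439.5 UMIs against 14311 to 21385.5. Barcodes between 0.5 of a cut and the cut numbered 280 there against 42 to 108. Endothelial Nphs1 reached 56.7 CPM there against 14.6 to 23.2 CPM in the other libraries.

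In podocytes Col4a3 and Col4a4, the partners of Col4a5 in the glomerular basement membrane trimer, were the most abundant chains. Col4a3 measured 3222, 3584, 2769 and 3349 CPM, and Col4a4 2266, 2611, 1653 and 1985 CPM. Col4a5 measured 546 CPM (537 to 554) in WT at 5 weeks and 384.5 CPM (379 to 390.3) in WT at 8 weeks. In AS podocytes it measured 191 CPM (187 to 196) and 202 CPM (199 to 206). Both AS libraries thus lay below both WT libraries for Col4a5, while Col4a3 was higher in AS than in WT at each age. Col4a6, the least abundant of these 4 in podocytes, went the other way from Col4a5, with 29.5 and 35.1 CPM in the WT libraries and 62.9 and 75.5 CPM in the AS libraries, the younger first.

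Differences between AS and WT were taken as log2((AS CPM + 5)/(WT CPM + 5)). The ratio of Col4a5 in podocytes was -1.49 (-1.53 to -1.45) at 5 weeks and -0.91 (-0.94 to -0.88) at 8 weeks, that is 0.356 and 0.532 of the WT level. The WT libraries differed by age, with a log2 ratio of 8 to 5 weeks of -0.50 (-0.53 to -0.47) for Col4a5, while that of the AS libraries was 0.08 (0.04 to 0.12). Set against WT of the opposite age, 5-week AS podocytes gave -0.99 and 8-week AS podocytes -1.41. Col4a6 was 1.97-fold higher in AS at 5 weeks (log2 0.98, 0.88 to 1.08) and 2.01-fold at 8 weeks (1.005, 0.93 to 1.08). Col4a3 and Col4a4 differed by less than 1.5-fold, with log2 ratios of 0.15 and 0.27 for Col4a3 and of 0.20 and 0.26 for Col4a4, the younger pair first. With the WT libraries exchanged these became 0.37 and 0.055 for Col4a3 and 0.66 and -0.19 for Col4a4, so Col4a4 passed 1.5-fold in the first and changed sign in the second.

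A gene counted as higher or lower in a comparison when it differed by at least 1.5-fold and reached 20 CPM and 30 UMIs in 1 of the libraries compared. In podocytes 4 of the 6 chains reached that level at each age, with 1 lower (Col4a5) and 1 higher (Col4a6) both times. Over all 6812 genes at that level in podocytes at 5 weeks, 1.39% were lower and 2.26% higher, and at 8 weeks 3.59% of 6990 genes were lower and 3.89% higher. The median log2 ratio of all these genes was 0.00174 at 5 weeks and -0.0387 at 8 weeks. Scaling by the median of gene ratios in place of the class total added 0.126 to the log2 ratios of podocytes at 8 weeks, which gave -0.79 for Col4a5, 0.40 for Col4a3, 0.39 for Col4a4 and 1.12 for Col4a6.

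**Figure D1:**
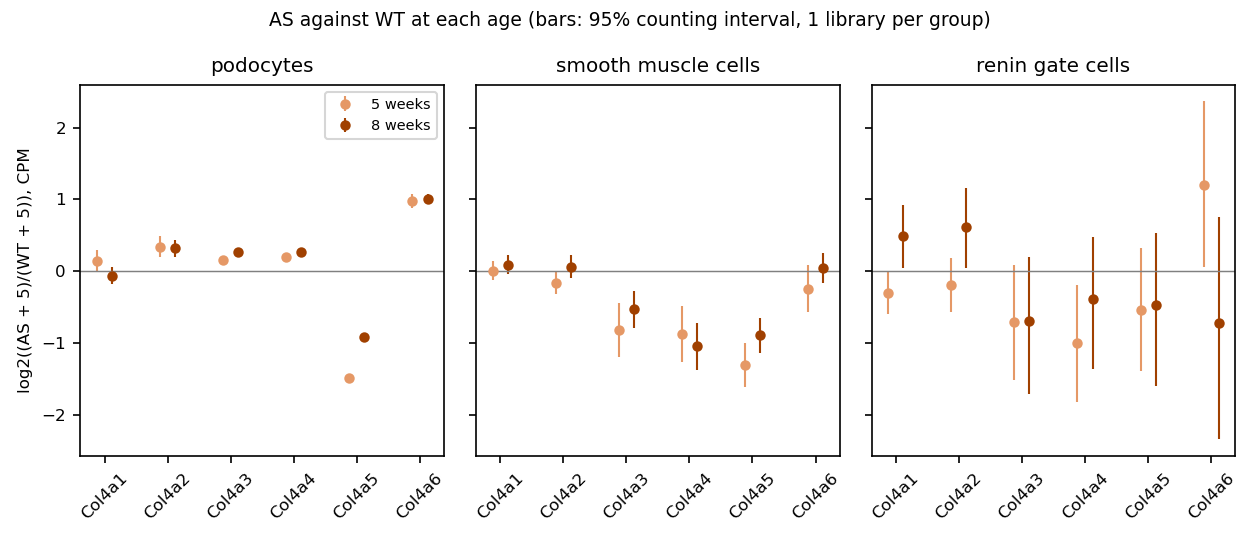
AS against WT for each chain at 5 weeks (light) and 8 weeks (dark) in podocytes, smooth muscle cells and renin gate cells, as log2((AS CPM + 5)/(WT CPM + 5)) with 95% counting intervals and 1 library per group. Col4a5 lies below 0 in all 3 classes, while Col4a6 lies near 1 in podocytes, near 0 in smooth muscle and on opposite sides of 0 in renin gate cells, whose intervals are wide.

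As a share of the Col4a3, Col4a4 and Col4a5 UMIs together, Col4a5 made up 9.04% (8.91 to 9.18) and 8.00% (7.88 to 8.12) in WT podocytes at 5 and 8 weeks. In AS it made up 2.995% (2.93 to 3.07) and 3.65% (3.59 to 3.71). Such shares do not depend on how the class total is scaled. Among Col4a5 and Col4a6 UMIs, Col4a6 took 5.12% (4.79 to 5.47) and 8.37% (7.98 to 8.78) in WT podocytes, and 24.8% (23.9 to 25.7) and 27.2% (26.6 to 27.9) in AS. Col4a4 took 37.6%, 40.9%, 34.4% and 35.9% of the 3 chains, and Col4a3 53.4%, 56.1%, 57.6% and 60.5%, so both took a larger share in AS than in WT of the same age. A smaller Col4a5 share leaves a larger one to Col4a3 and Col4a4 together.

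Cell by cell, the lower Col4a5 share was spread over the AS podocytes. Among podocytes with at least 20 UMIs of the 3 chains, the median Col4a5 share per cell was 8.89% in 5-week WT and 2.59% in 5-week AS cells, then 7.69% and 3.30% in the older pair. The middle 50% of cells spanned 6.67% to 11.3% in 5-week WT and 1.43% to 3.94% in 5-week AS. For the older pair the spans were 5.26% to 10.3% and 2.01% to 5.13%. These spans did not overlap between WT and AS at either age, although the tails did. Cells without a Col4a5 UMI made up 0.570% and 2.21% in WT and 11.1% and 7.27% in AS. After each cell was thinned to 5000 UMIs, a Col4a5 UMI was found in 91.7% and 82.2% of WT podocytes and in 56.8% and 59.1% of AS podocytes. Counts spread at random over cells with the same mean would give 93.4%, 84.4%, 60.4% and 64.1% in the order WT 5 weeks, WT 8 weeks, AS 5 weeks, AS 8 weeks, so each library lay a few points below that value.

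**Figure D2:**
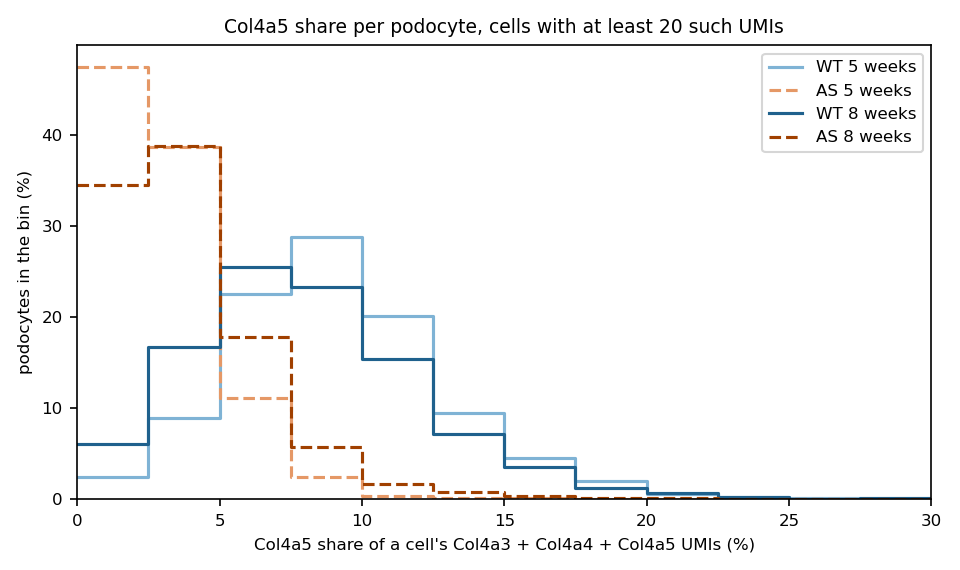
Distribution over podocytes of the Col4a5 share of a cell's Col4a3, Col4a4 and Col4a5 UMIs, in bins of the share (percent) on the x axis and percent of cells on the y axis, for cells with at least 20 such UMIs. Both AS libraries (dashed) peak below 5%, and both WT libraries (solid) between 5% and 10%.

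Tnfsf15, the gene in the title of the series, split the podocytes of each library into cells with and without its UMI. Col4a5 lay at 560 and 537 CPM in these groups in WT at 5 weeks and at 196 and 176 CPM in AS. At 8 weeks the values were 392 and 378.5 CPM in WT, then 200 and 231 CPM in AS. Cells with a Tnfsf15 UMI were deeper in each library, most of all in AS at 8 weeks, where the median was 22631.5 against 8180 UMIs. Col4a5 in both groups of AS cells lay below both groups of WT cells at each age.

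Col4a1 and Col4a2, the chains of the general trimer, measured close to the immune-cell level in podocytes. Col4a1 measured 10.8, 12.4, 11.0 and 10.4 CPM there and 10.0, 12.7, 9.97 and 6.10 CPM in immune cells, with overlapping intervals in each library. Col4a2 measured 10.4, 14.5, 8.34 and 11.7 CPM in podocytes and 15.0, 5.79, 0 and 7.63 CPM in immune cells. Its intervals overlapped as well, most narrowly in AS at 5 weeks (13.25 to 15.8 against 1.88 to 13.5 CPM). Both chains together made up 0.347%, 0.415%, 0.398% and 0.391% of the UMIs of the 6 chains. After a part of the RNA profile of low-depth barcodes was subtracted this share was 0.149%, 0.202%, 0.140% and 0.161%. The full low-depth level of Col4a1, at 468, 336, 234 and 241 CPM, was above that of podocytes. Only a part can thus have been taken off, and its size is not given here. A Col4a1 UMI was found in 7.24% to 12.8% of podocytes (median depth 14204.5 to 20296 UMIs) and in 4.49% to 6.67% of immune cells (4694 to 6553 UMIs). After thinning to 5000 UMIs the shares were 3.17% to 4.08% in podocytes and 6.94%, 7.25%, 0% (0 of 22 cells, upper limit 15.4%) and 6.67% in immune cells. Free RNA can make up a smaller part of the UMIs of a deeper cell, in CPM and after thinning alike. Since podocytes were deeper, these values cannot decide whether they exceeded the background.

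In endothelial cells the pattern was turned around. Col4a1 measured 832, 733.5, 414 and 546 CPM and Col4a2 585, 495, 275 and 361 CPM, which together made up 91.1% (90.8 to 91.4), 90.1% (89.8 to 90.4), 73.5% (72.6 to 74.4) and 88.6% (88.2 to 89.0) of the UMIs of the 6 chains. The low share in WT at 8 weeks stood beside the highest endothelial Nphs1 level of the 4 libraries, whose part in it was not tested. Mesangial cells held the highest levels of both chains in every library, with 1538, 1316, 687 and 788 CPM of Col4a1 and 1276, 1089, 596 and 657 CPM of Col4a2. Smooth muscle cells held 699, 703.5, 411 and 439 CPM of Col4a1, and renin gate cells 729, 590.0, 298 and 422 CPM. The intervals of endothelial and smooth muscle cells overlapped for Col4a1 in AS at 5 weeks and in WT at 8 weeks. Those of smooth muscle and renin gate cells overlapped in every library but WT at 8 weeks.

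**Figure D3:**
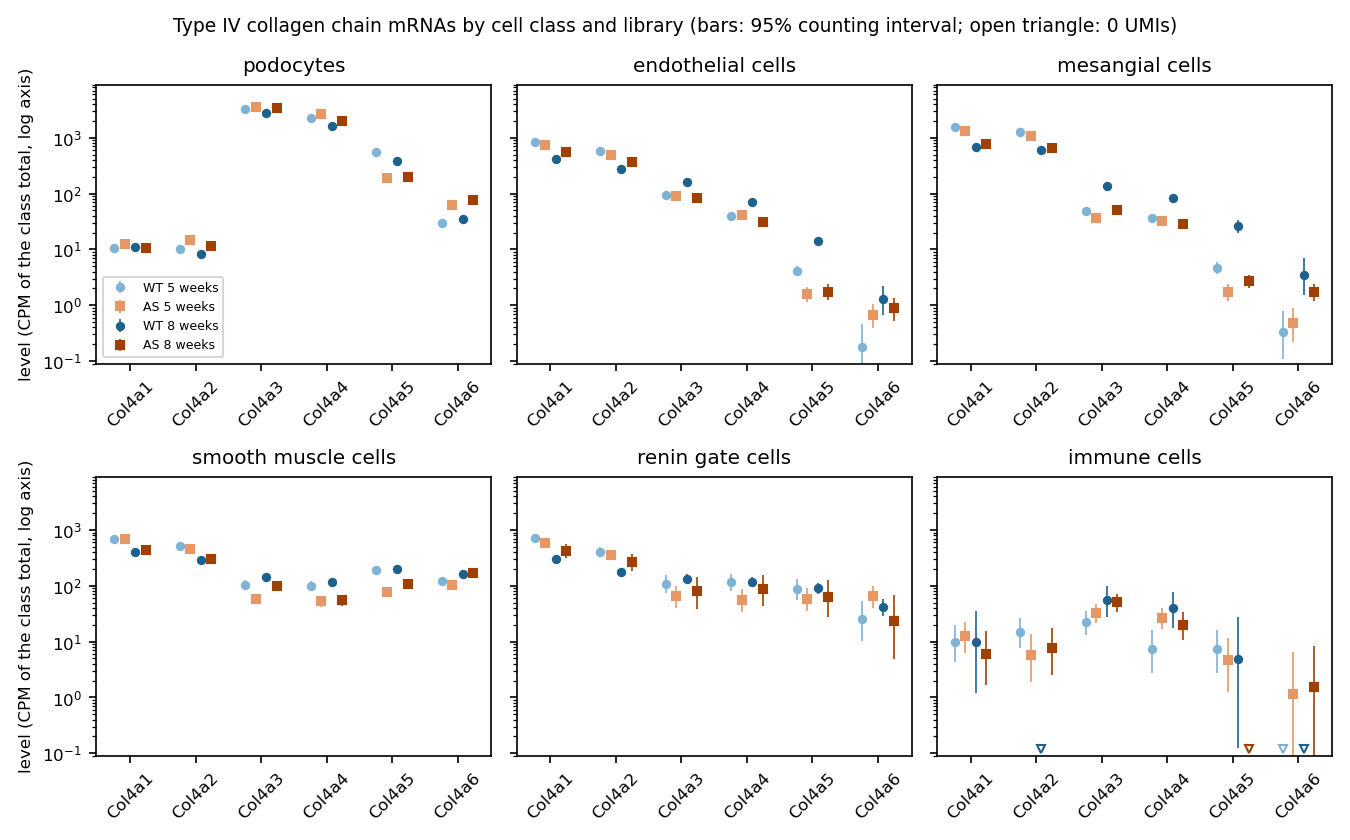
Level of each chain (CPM of the class total, log axis) in 6 cell classes, with 1 point per library, 95% counting intervals as bars and open triangles at the foot for 0 UMIs. Podocytes hold mostly Col4a3, Col4a4 and Col4a5, with less Col4a6, and endothelial and mesangial cells mostly Col4a1 and Col4a2. In smooth muscle cells every chain lies at 52.8 CPM or more. In immune cells no chain exceeds 54.9 CPM.

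The balance between Col4a1 and Col4a2 differed between classes. Col4a1 made up 54.7%, 54.7%, 53.6% and 54.6% of the UMIs of both in mesangial cells and 58.7%, 59.7%, 60.0% and 60.2% in all endothelial cells together. In arterial endothelial cells, marked by genes such as Gja5 and Sox17, it made up 67.9%, 68.2%, 72.2% and 69.05%, the highest share of the 6 endothelial groups in each library. Esm1/Dll4 cells came nearest in WT at 8 weeks, at 67.9% (63.3 to 72.2) against 72.2% (68.3 to 75.9), and ranged from 59.3% to 67.9% over the libraries. The arterial interval overlapped that of at least 1 other group in every library but WT at 5 weeks. The interval of the arterial share lay above that of all endothelial cells together in WT at 5 weeks (63.8% to 71.9% against 58.15% to 59.25%) and in the other 3 libraries, most narrowly in AS at 8 weeks (61.5% to 75.9% against 59.5% to 60.9%). Arterial cells also held the least Col4a2 of the endothelial groups, at 239, 155, 124 and 139 CPM.

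At 8 weeks Col4a1 and Col4a2 were lower than at 5 weeks in each of these classes and both genotypes. In endothelial cells the log2 ratio of 8 to 5 weeks for Col4a1 was -1.0 (-1.049 to -0.95) between the WT libraries and -0.42 (-0.455 to -0.39) between the AS libraries, and for Col4a2 -1.07 and -0.45. Mesangial cells gave -1.16 and -0.74 for Col4a1 and -1.09 and -0.73 for Col4a2. Smooth muscle cells gave -0.76 and -0.68 for Col4a1 and -0.81 and -0.58 for Col4a2. Median ratios of all genes in these comparisons lay between 0.0175 and 0.0969. Age and library cannot be told apart here. Within the 6 endothelial groups the ratios for Col4a1 ran from -1.14 to -0.485 in WT and from -0.53 to -0.075 in AS. Each of the 6 groups was thus lower at 8 weeks in WT, while in AS the intervals of the arterial and Tspan8/Thbd groups reached past 0. In renin gate cells Col4a1 ratios were -1.275 (-1.55 to -1.0) in WT and -0.48 (-0.94 to -0.04) in AS.

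Between genotypes, Col4a1 and Col4a2 in endothelial cells differed by less than 1.5-fold, with log2 ratios of AS to WT of -0.18 and -0.24 in the younger pair and 0.40 and 0.39 in the older. In mesangial cells the 5-week ratios were -0.225 and -0.23 and the 8-week ratios 0.20 and 0.14. All 8 ratios changed sign against WT of the opposite age. For Col4a1 they became 0.82 and -0.60 in endothelial cells and 0.93 and -0.96 in mesangial cells, the 5-week AS library first, so no direction between genotypes held for these chains. At 5 weeks 4 chains reached the level in endothelial cells and 0 of them was called in either direction, where 1.02% of all genes were lower and 0.597% higher. At 8 weeks Col4a3 and Col4a4 were lower in AS endothelial cells (-0.95 and -1.035), where 4.32% of genes were lower and 2.45% higher. In mesangial cells 0 of 4 chains was called at 5 weeks (1.57% of genes lower, 0.607% higher), and at 8 weeks Col4a3, Col4a4 and Col4a5 were lower in AS (-1.36, -1.405 and -2.02, with 2.9% of genes lower and 1.29% higher). These ratios at 8 weeks stood beside the podocyte RNA of these cells, since Nphs1 lay below the WT level in AS endothelial cells (23.2 against 56.7 CPM) and in AS mesangial cells (20.2 against 57.8 CPM). Its part in the differences was not tested. Against 5-week WT the 8-week AS ratios were -0.17 and -0.32 in endothelial cells and 0.035, -0.34 and -0.33 in mesangial cells, all within 1.5-fold.

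**Figure D4:**
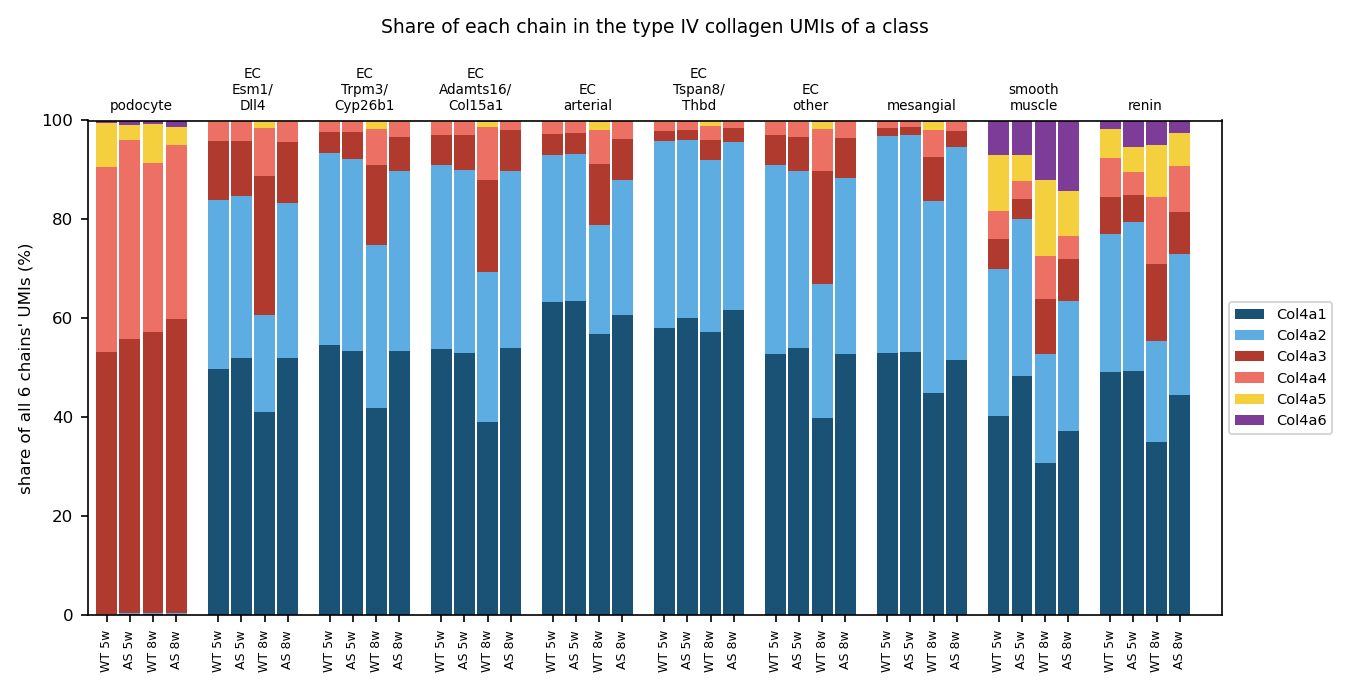
Share of each chain in the UMIs of the 6 chains (percent, stacked bars) for each class and endothelial group (EC), with 1 bar per library. Podocyte bars are nearly all Col4a3, Col4a4 and Col4a5, the other bars mostly Col4a1 and Col4a2, and the WT 8-week bars outside podocytes hold the largest part of Col4a3.

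Free RNA in droplets can give chain UMIs to cells that do not express the gene, so the chains outside podocytes were set beside immune cells, which should lack them. In the order WT at 5 weeks, AS at 5 weeks, WT at 8 weeks and AS at 8 weeks, Col4a3 measured 22.6 CPM (13.4 to 35.6), 32.4 CPM (21.5 to 46.9), 54.9 CPM (27.4 to 98.1) and 50.4 CPM (34.7 to 70.7) in immune cells. Col4a4 measured 7.52, 26.6, 39.9 and 19.8 CPM in them, and Col4a5 at most 7.52 CPM. Barcodes under 1000 UMIs carried 611, 594, 1013 and 679 CPM of Col4a3 and 134, 40.7, 170 and 37.3 CPM of Col4a5. Col4a3 lay below these levels in every class but podocytes, immune cells included. A CPM gives the makeup of shallow barcodes, not how much free RNA a deeper cell holds. It therefore cannot decide whether a class exceeded its background. Why the low-depth barcodes and immune cells differ was not tested, and the background named below is that of immune cells. Immune cells were few, so this background is known less closely than the levels set beside it.

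Endothelial Col4a3 lay above the immune level and below that of the low-depth barcodes. It measured 93.5 CPM (89.5 to 97.6), 91.9 CPM (88.3 to 95.6), 164 CPM (155.5 to 172) and 82.5 CPM (78.7 to 86.4), and its interval lay above that of immune cells in all 4 libraries. Col4a4 measured 40.4, 41.0, 69.5 and 31.3 CPM, and its interval was above that of immune cells in WT at 5 weeks and overlapped it in the other 3 libraries. Col4a5 measured 4.15, 1.56, 13.95 and 1.75 CPM with intervals that overlapped the immune ones in each library, so Col4a5 beyond the background was not detectable in endothelial cells at this depth. Among the 3 chains, Col4a3 made up 67.7%, 68.3%, 66.2% and 71.4% of UMIs in endothelial cells and 53.4%, 56.1%, 57.6% and 60.5% in podocytes, and the intervals of these 2 classes did not overlap in any library. Immune cells held 18, 28, 11 and 33 UMIs of Col4a3, 6, 23, 8 and 13 of Col4a4 and 6, 4, 1 and 0 of Col4a5. These are too few to set the endothelial share apart from the background.

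Endothelial cells without any UMI of the 9 podocyte markers numbered 771, 858, 43 and 328. Their Col4a3 level was 88.3 CPM (80.1 to 97.1), 89.8 CPM (81.7 to 98.5), 241 CPM (177 to 321) and 83.1 CPM (69.5 to 98.6), no lower than that of all endothelial cells beyond its interval. Immune cells without such UMIs held 1, 8, 0 and 0 Col4a3 UMIs in 16, 31, 2 and 5 cells. In AS at 5 weeks these 8 UMIs gave 55.1 CPM (23.8 to 108.5), an interval that held the endothelial level of 89.8 CPM. After thinning to 5000 UMIs a Col4a3 UMI was found in 30.9%, 33.0%, 50.9% and 30.3% of endothelial cells and in 8.33%, 15.9%, 31.8% and 28.9% of immune cells. The intervals of these shares were apart at 5 weeks and overlapped at 8 weeks, where 22 WT and 45 AS immune cells were deep enough. Unthinned shares were 38.9%, 39.2%, 56.3% and 40.15% in endothelial cells (median depth 6004.5 to 6728.5 UMIs) and 15.1%, 16.7%, 29.03% and 27.0% in immune cells (4694 to 6553 UMIs).

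The endothelial groups differed in Col4a3. These groups were set by marker pairs that come from earlier results of the same data: Esm1 and Dll4, Trpm3 and Cyp26b1, Adamts16 and Col15a1, arterial genes, and Tspan8 and Thbd, with all other endothelial cells as a sixth group. Esm1/Dll4 cells numbered 242, 294, 100 and 180 and held 145, 122.5, 261 and 106 CPM of Col4a3, the highest level of the 6 groups in each library. Their intervals lay above those of immune cells in all 4. They overlapped those of Adamts16/Col15a1 cells in all but WT at 5 weeks, and those of the other endothelial cells in WT and AS at 8 weeks. Trpm3/Cyp26b1 cells held 62.7, 77.9, 180.0 and 69.1 CPM, and their interval lay below that of Esm1/Dll4 cells in each library. Tspan8/Thbd cells held 17.8, 18.9, 27.0 and 24.7 CPM and arterial cells 32.5, 22.0, 70.7 and 42.7 CPM, and the intervals of both groups overlapped those of immune cells in every library. Adamts16/Col15a1 cells (105.5, 109.6, 204 and 101.8 CPM) and other endothelial cells (99.7, 91.9, 238 and 87.2 CPM) lay between, and their intervals overlapped each other in WT at 5 weeks, WT at 8 weeks and AS at 8 weeks.

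Nphs1, a gene of the podocyte slit diaphragm, followed this order in part. It lay at 9.19, 19.5, 56.0 and 23.1 CPM in Esm1/Dll4 cells and at 13.2, 13.4, 67.2 and 27.4 CPM in Trpm3/Cyp26b1 cells, which held less Col4a3. In Tspan8/Thbd cells it lay at 5.61, 15.4, 30.2 and 10.8 CPM, from 6, 9, 47 and 11 UMIs. Col4a1 had another order among the groups than Col4a3. It was highest in Adamts16/Col15a1 cells at 5 weeks (955 and 821 CPM) and in AS at 8 weeks (663 CPM), while Esm1/Dll4 cells held 612, 575, 382 and 448 CPM. As a result Col4a1 and Col4a2 together took the smallest share of the 6 chains in Esm1/Dll4 cells of every library, at 84.0%, 84.7%, 60.6% and 83.3%, and the largest in Tspan8/Thbd cells, at 95.9%, 96.2%, 92.1% and 95.6%.

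**Figure D5:**
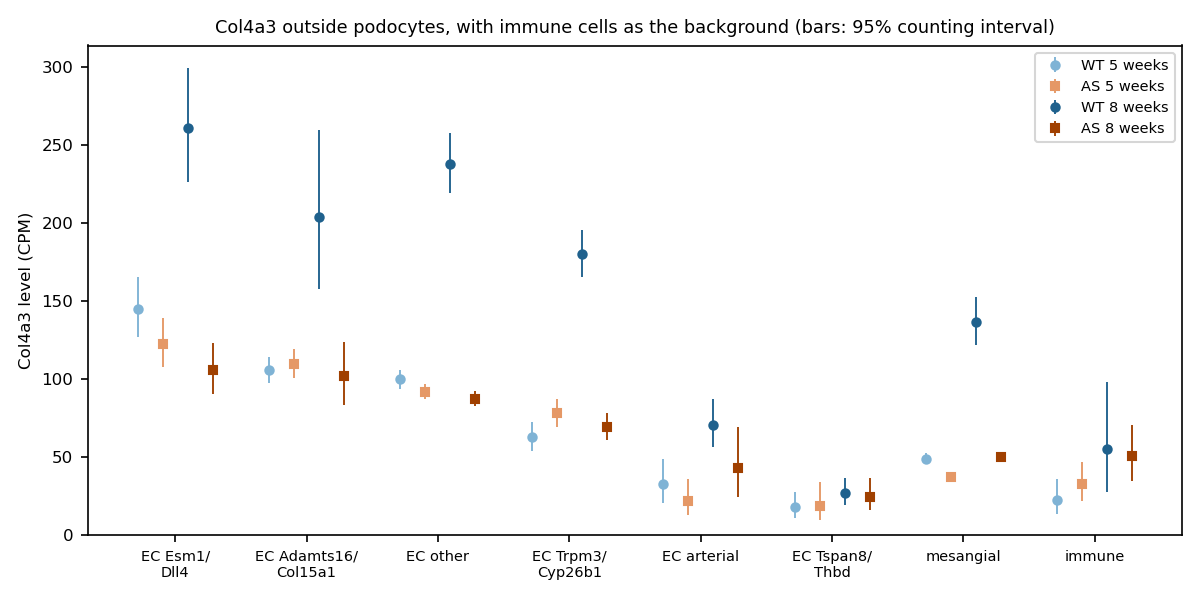
Col4a3 level (CPM, linear axis from 0) in the 6 endothelial groups (EC), mesangial and immune cells, with 1 point per library and 95% counting intervals. Immune cells stand for the background. Esm1/Dll4 cells lie above immune cells in all 4 libraries, arterial and Tspan8/Thbd cells overlap them, and the WT 8-week points are the highest in each endothelial group.

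In mesangial cells Col4a3 measured 48.7, 37.2, 136 and 50.1 CPM, lower than in all endothelial cells together in each library. Its interval lay above that of immune cells in both WT libraries and overlapped it in both AS libraries. Col4a4 measured 36.9, 31.8, 82.6 and 28.1 CPM there, above the immune interval in WT at 5 weeks alone. Col4a5 in mesangial cells measured 4.65, 1.74, 26.1 and 2.67 CPM, with intervals that overlapped those of immune cells in each library.

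Smooth muscle cells held the most Col4a5 outside podocytes and the most Col4a6 of all classes. Col4a5 measured 196 CPM (171 to 224), 76.5 CPM (63.9 to 90.9), 202.5 CPM (191 to 215) and 107 CPM (90.6 to 126). No interval of Col4a5 in immune cells reached past 27.8 CPM. Col4a6 measured 121, 101.4, 161 and 167 CPM, above podocytes in every library, where no immune interval reached past 18.4 CPM. Smooth muscle cells with no podocyte marker UMI numbered 7, 8, 3 and 1, and held 8, 6, 4 and 0 Col4a5 UMIs. Col4a5 was lower in AS smooth muscle as it was in podocytes, with a log2 ratio of -1.30 (-1.61 to -0.995) at 5 weeks and -0.88 (-1.13 to -0.64) at 8 weeks. Col4a6 was not higher in AS here, with ratios of -0.24 (-0.56 to 0.09) and 0.05 (-0.16 to 0.26).

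Podocytes and smooth muscle thus differed in Col4a6, a difference that was not tested. In podocytes the WT and AS intervals of the level were apart at both ages, at 27.5 to 31.5 and 60.3 to 65.55 CPM in the younger pair. In smooth muscle they overlapped at both ages, at 100.8 to 143 and 86.8 to 118 CPM in the younger pair. The Col4a6 share of Col4a5 and Col4a6 UMIs in AS smooth muscle was 57.0% against 38.1% in WT at 5 weeks and 60.8% against 44.25% at 8 weeks. This higher share follows from the lower Col4a5 there. Col4a3 in smooth muscle measured 104.9, 57.5, 146 and 100 CPM, and its interval lay above that of immune cells in every library but AS at 5 weeks. It was lower in AS at 5 weeks (log2 -0.81) and within 1.5-fold at 8 weeks (-0.53). Col4a4 measured 100.3, 52.8, 118 and 54.8 CPM, above the immune intervals throughout, and was lower in AS at both ages (-0.87 and -1.04). In all, 3 of 6 chains were called lower and 0 higher at 5 weeks, where 4.03% of all genes were lower and 4.13% higher, and 2 of 6 lower and 0 higher at 8 weeks, where 1.88% were lower and 1.92% higher.

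Renin gate cells, which share their origin with arteriolar smooth muscle, rested on few UMIs. They also carried smooth muscle markers, at a median of 46.8, 159, 55.4 and 108 UMIs per 10000, where the cut for smooth muscle was 48. The part of these in the chain levels was not tested. Col4a5 measured 87.4, 59.0, 89.8 and 63.8 CPM, from 24, 20, 72 and 8 UMIs, with intervals above those of immune cells in all 4 libraries. Col4a6 measured 25.5, 64.9, 42.4 and 23.9 CPM, from 7, 22, 34 and 3 UMIs, and its interval overlapped that of immune cells in AS at 8 weeks alone. Col4a3 intervals lay above the immune ones in both WT libraries and overlapped them in both AS libraries, and Col4a4 intervals lay above them in all but AS at 5 weeks. The log2 ratios of AS to WT for Col4a5 were -0.53 (-1.39 to 0.33) and -0.46 (-1.60 to 0.53), so a difference was not detectable at this depth.

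Across classes the order of Col4a5 was podocytes, smooth muscle, renin gate cells, and then mesangial and endothelial cells in each library. Neighbours that overlapped in their intervals were smooth muscle and renin gate cells in AS at 5 weeks and AS at 8 weeks. The intervals of mesangial and endothelial cells overlapped in WT at 5 weeks, AS at 5 weeks and AS at 8 weeks. Col4a6 was highest in smooth muscle in all 4 libraries, and at 3.53 CPM or less in mesangial and endothelial cells.

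Over 37 sums of UMIs (classes and endothelial groups of at least 50 cells in a library), the pairs of neighbouring genes were most alike. Pearson's r of log2(CPM + 5) was 0.988 for Col4a1 with Col4a2, 0.971 for Col4a3 with Col4a4 and 0.887 for Col4a5 with Col4a6. The sums share libraries and free RNA, so r is a description. Among 10407 genes, Arhgef40, Ttc28, Tnks1bp1, Rhoj and Itga9 were most like Col4a1 (r from 0.968 to 0.96), and Shisa3, Myom2, Kcnq1ot1, Chst1 and Rarres1 most like Col4a3 (0.934 to 0.929). Plce1, Eya4, Med12l, Ntrk3 and Nbl1 were most like Col4a5 (0.968 to 0.94), and Dtna, F3, Adcy5, Hspb2 and Csrp2 most like Col4a6 (0.984 to 0.964). All of these r lay above that of Col4a5 with Col4a6. Plce1, which encodes a phospholipase C and is itself a gene of inherited kidney disease, lay at 782 to 1145 CPM in podocytes and 340 to 448 CPM in smooth muscle. Dtna, which encodes dystrobrevin alpha, lay at 49.9 to 56.2 CPM in podocytes and 95.7 to 129 CPM in smooth muscle.

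Other basement membrane genes in podocytes were taken from lists chosen with earlier results of these data known. Of 8 laminin and other basement membrane genes at the level, 0 passed 1.5-fold at 5 weeks and 3 were higher in AS at 8 weeks, with a median log2 ratio over the 8 of -0.096 and -0.0189. Sparc, a collagen-binding matrix protein, measured 3063 CPM in 8-week WT and 5789 CPM in 8-week AS, Npnt (nephronectin, an integrin ligand) 1182 and 1999 CPM, and Nid2 (nidogen, which links laminin to type IV collagen) 15.0 and 28.4 CPM. Lamb2, a laminin chain of the glomerular basement membrane, was within 1.5-fold, at 261 and 255 CPM in the younger pair (WT first) and 239.7 and 205.0 CPM in the older. No gene of this list passed 1.5-fold lower in AS podocytes.

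Of 19 genes for folding, export and cross-linking of collagen, 2 were higher in AS podocytes at 5 weeks and 3 at 8 weeks, and 0 lower. Plod2, a lysyl hydroxylase, lay at 595 CPM in 5-week WT and 1092 CPM in 5-week AS, and in the older pair at 596 and 1501 CPM. Colgalt2, which adds galactose to hydroxylysine, measured 54.6 and 124 CPM at 5 weeks. P4ha1, a prolyl hydroxylase subunit, measured 66.8 and 113 CPM, and Loxl2, a lysyl oxidase, 126 and 192 CPM at 8 weeks. The list's median log2 ratio was 0.00414 at 5 weeks and 0.157 at 8 weeks. P3h2, a prolyl hydroxylase that acts on type IV collagen, was within 1.5-fold at both ages (866 and 858 CPM, then 913 and 747 CPM). The scaling shift of 0.126 would bring P4ha2, Bcam and Itgb1 past 1.5-fold at 8 weeks as well.

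Among receptors 1 of 11 was higher at 5 weeks and 2 of 12 at 8 weeks, with medians of 0.197 and 0.283. Itga1, a subunit of a collagen IV receptor, lay at 19.8 CPM in 5-week WT and 40.6 CPM in 5-week AS, and in the older pair at 21.6 and 52.2 CPM. Gpc4, a heparan sulfate proteoglycan, measured 12.2 and 23.9 CPM at 8 weeks. Of the degradation list 4 genes reached the level and 0 passed 1.5-fold at either age, with medians of 0.0899 and 0.292. With WT of the opposite age, basement membrane genes higher in 5-week AS numbered 2 and receptors higher in 8-week AS 4, and 2 basement membrane genes were lower in 8-week AS. Folding genes higher in 5-week AS then numbered 1, and degradation genes higher in 8-week AS 1. These counts stand beside 2.26% of all genes higher at 5 weeks and 3.89% at 8 weeks in podocytes, and nothing particular to the lists was tested.

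The same basement membrane list in endothelial cells had 1 gene higher and 1 lower of 16 at 5 weeks and 7 higher and 2 lower of 16 at 8 weeks, with medians of -0.096 and 0.148. Over all genes 0.597% were higher and 1.02% lower at 5 weeks, and 2.45% and 4.32% at 8 weeks. The 7 that were higher in AS at 8 weeks were Lama4, Lamb1, Nid1, Nid2, Hspg2, Col15a1 and Hmcn1, and the 2 lower were Lama3 and Npnt. All 9 were named after their values were seen. Each of the 7 was lowest in 8-week WT among the 4 libraries, and 5 of them lay lower in 8-week AS than in 5-week WT. Hspg2, which encodes perlecan, measured 350 CPM in 5-week WT, 301 CPM in 5-week AS, 198 CPM in 8-week WT and 320.5 CPM in 8-week AS. Nid1, the other nidogen, measured 151.5, 149 and 90.4 CPM in the first 3 of these and 165 CPM in the last. In a comparison chosen after seeing the data, 2 genes were higher and 2 lower in 8-week AS against 5-week WT, and against 8-week WT, 7 were higher and 4 lower in 5-week AS. In mesangial cells 0 of 14 was higher and 2 lower at 5 weeks, and at 8 weeks 0 of 15 was higher and 3 lower, beside 1.57% of all genes lower at 5 weeks and 2.9% at 8 weeks. With WT of the opposite age the lower genes were 1 and 6. The makeup of the endothelial class moved with the 8-week comparison. Trpm3/Cyp26b1 cells were 37.65% of endothelial cells in 8-week WT and 18.1% in 8-week AS, and arterial cells 10.1% and 1.68%, while Adamts16/Col15a1 cells were 4.89% and 5.31%. The part of this makeup was not tested.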

How the data were processed

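Per the labels' protocols the libraries were made with Chromium single-cell 3′ reagents (kit v2), and, per the file headers, the authors deposited unnormalized UMI counts from Cell Ranger 9.0.0. Reads were handled with STAR 2.7.2a and bcl2fastq 2.20.0 on GRCm38 (mm10), per the submitters' processing notes. Each deposited barcode has at least 500 UMIs. Whether counting used strand is not given in the sources used here, so reads of C430014B12Rik, annotated over the 3′ end of Col4a3 (21.1 to 30.9 CPM in podocytes), and of Gm15418 at Col4a1 cannot be told from theirs.

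Cells were classed by marker UMIs per 10000 UMIs (cuts of 64 for podocytes, endothelial and renin gate cells, 48 for mesangial and smooth muscle and 24 for immune cells), with at least 10 marker UMIs of 3 markers (both markers for the renin gate) and under 0.5 of the cut of other lineages. Mesangial, smooth muscle and renin gate cells counted as 1 lineage, and a cell past the renin cut was a renin gate cell whatever its other mural markers. Such classes are ranges of a score. UMIs were summed per class and library, with Poisson, conditional binomial and Clopper-Pearson 95% intervals (scipy 1.17.1). All 6 members are named. Of each pathway list up to 3 genes each way past 1.5-fold in podocytes are named, with Lamb2, P3h2 and the endothelial genes chosen after their values were seen, and the 5 genes most like a member. Doublets were left out only as an alternative (Scrublet in scanpy 1.11.5, expected rate 6%, which called 2.40% to 6.32% of cells). A background level planned from a podocyte marker is not reported here. The summing and interval steps were tested on simulated data. Members and lists were chosen with earlier results of these data known.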

Additional observations from a re-analysis of the deposited data

Results flagged for a closer look

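Col4a6 differed in direction between podocytes and renin gate cells at 8 weeks. The log2 ratio of AS to WT was 1.005 in podocytes and -0.714 (-2.33 to 0.76) in renin gate cells, where the AS library held 3 Col4a6 UMIs in 12 cells and the WT library 34 in 70 cells. The difference was not tested, and with every cell thinned to 5000 UMIs the renin gate value was 0.759. At 5 weeks the ratio was 0.98 in podocytes and 1.20 (0.06 to 2.36) in renin gate cells. The latter rested on 7 WT and 22 AS UMIs, too few to reach the level for a call.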

How the results depend on the processing

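Both Col4a5 ratios in podocytes stayed below 0 under every setting run. At 5 weeks the ratio was -1.539 as a mean of per-cell shares and -0.989 against 8-week WT. At 8 weeks it was -0.845 after thinning to 5000 UMIs, -0.787 with median-of-ratios scaling, -0.773 as a mean of per-cell shares and -1.41 against 5-week WT. In the order WT 5 weeks, AS 5 weeks, WT 8 weeks, AS 8 weeks, the Col4a1 and Col4a2 share in podocytes was 0.2883%, 0.2997%, 0.3544% and 0.2843% without Scrublet calls. Thinned, it was 0.3826%, 0.328%, 0.2537% and 0.3048%, and as a mean over cells 0.4072%, 0.3862%, 0.3212% and 0.3361%. With a part of the low-depth RNA profile subtracted it was 0.1488%, 0.202%, 0.1398% and 0.1612%. Marker cuts 1.5 times higher, chosen after seeing the data, gave 0.3783%, 0.349% and 0.3649% in the last 3 libraries. In endothelial cells thinning gave 90.81%, 89.75% and 70.99% in the first 3 libraries, the mean over cells 90.32%, 74.6% and 89.9% in all but AS at 5 weeks, and the higher cuts 72.33% in WT at 8 weeks. Of the 60 ratios of AS to WT, 22 changed sign against WT of the opposite age and 11 after thinning. Among ratios past 1.5-fold 3 did so: against 5-week WT, Col4a3 in 8-week AS mesangial cells was at 0.035 and Col4a2 in renin gate cells at -0.595, and thinned Col4a6 in renin gate cells was at 0.759. The causes were not tested. Subtraction of low-depth RNA was not run outside podocytes. Doubling the minimum of marker UMIs moved 0 of 68 values beyond their intervals. It kept nearly the same cells, with 1709, 1623, 2870 and 2513 podocytes of 1740, 1653, 2970 and 2536, so little could move. With 1 library per group no replicate could be left out, depth limits renin gate cells most (119 to 684 chain UMIs), and no paired analysis was possible because no group has a replicate.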
